A study of Mus musculus with 5 samples.

Results

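The early B lineage genes described here are 9 genes of the mouse that mark B lymphocytes from their first committed stages, taken by name from the raw counts. Of the 30046 features counted, 7 members are pro-B and pre-B genes (Dntt, Rag1, Rag2, Vpreb1, Vpreb2, Vpreb3 and Igll1) and 2 are pan-B genes (Cd79a and Cd79b), and all 9 had counts in each library. The study compared marrow stromal cells that descend from Dlx5-creER+ fetal perichondrial cells with those that descend from Fgfr3-creER+ fetal chondrocytes, with a sort aimed at stromal cells. The libraries were made from Cxcl12-GFPhigh tdTomato+ cells sorted from femurs at postnatal day 21 after tamoxifen at E12.5, with 3 libraries of Dlx5CE-E12.5 cells from Cxcl12(GFP/+); Dlx5(CreER/+); R26R(tdTomato/+) mice and 2 libraries of Fgfr3CE-E12.5 cells, numbered 2 and 3, from Cxcl12(GFP/+); Fgfr3-iCreER; R26R(tdTomato/+) mice. Each group thus carried the Cxcl12-GFP allele, the R26R-tdTomato reporter and a creER driver, and each received tamoxifen, so no library came from mice without them. Littermates of a genotype were pooled for sorting, and the methods for this sort name the 2 fluorescent proteins but no gate against blood cells. The flow cytometry of the study at the same age left out cells with blood or endothelial markers. Whether this sort did so is not stated.

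B lymphocytes are made in the bone marrow from progenitors that depend on Cxcl12 and interleukin 7 from stromal cells. In pro-B cells the Rag1 and Rag2 proteins cut the immunoglobulin heavy chain locus, and terminal transferase, encoded by Dntt, adds bases at the joints. In pre-B cells the new heavy chain pairs with a surrogate light chain made of the Vpreb and Igll1 proteins, and it signals through Cd79a and Cd79b, which stay with the B cell receptor through most of B cell life.

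The labelled cell type was checked against 9 marrow stromal markers, all of which were measured. Their summed level ranged from 32770 to 34682 normalized CPM (the count of a gene scaled to the effective size of its library) in Dlx5CE-E12.5 libraries and from 8712 to 13265 in Fgfr3CE-E12.5 libraries. Cxcl12, whose GFP allele was used in the sort, made up 21252 to 22405 of the former and 5802 to 8068 of the latter. In the fit with the CPM filter of 10 given below, 6 of 9 were called higher in Dlx5CE-E12.5 cells, beside 13.1% of genes. Foxc1 was called higher in Fgfr3CE-E12.5 cells (mean 337 against 47.7 normalized CPM), and 2 were not called. Markers of blood cells were also present in each library, and their levels are given below. Total counts ranged from 22035650 to 32563758 in Dlx5CE-E12.5 libraries and from 56355203 to 58166285 in Fgfr3CE-E12.5 libraries, so that 3 counts, taken as the floor of detection, amounted to between 0.0516 and 0.136 CPM. Reads were not tagged as molecules, so this floor covers counting error only. According to the methods of the study, sequencer, read length and read pairing differed between the lineages, and their effects cannot be told apart from lineage.

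Sequences are shown first where they bear on how the counts can be read or on the members that moved apart. Promoter sequences are from RefSeq on GRCm38.p6, in which 8 of 9 members were matched (not Cd79b), and gene positions are those of GENCODE M21 on GRCm38. Vpreb1 (chr16:16868403-16870843, minus strand) and Vpreb2 (chr16:17980428-17981273, plus strand) encode near-identical V domains of the surrogate light chain. A stretch of 106 bases upstream of their RefSeq starts was identical at 104 positions (98.1%), and the 2 that differ are in capitals. The Vpreb1 stretch (chr16:16869256-16869361, minus strand) also overlaps an exon of a non-coding Vpreb1 transcript, and the Vpreb2 stretch is chr16:17980315-17980420 on the plus strand.
Vpreb1: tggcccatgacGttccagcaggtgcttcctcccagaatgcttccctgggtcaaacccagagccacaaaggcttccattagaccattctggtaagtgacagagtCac
Vpreb2: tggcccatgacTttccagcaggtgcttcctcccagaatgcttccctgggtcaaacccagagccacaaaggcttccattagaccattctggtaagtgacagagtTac
Within the transcripts, 32.8% of the 50-base windows of Vpreb2 and 23.6% of those of Vpreb1 occur in another gene, 233 of them shared between the pair, so the split of reads between these genes is uncertain.

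Promoters of 3 members are shown because Igll1 was higher in Fgfr3CE-E12.5 cells while Rag1 and Rag2, which lie side by side, differed from each other. Each is the 250 bases before the RefSeq start, with capitals marking CCCNNGGG, the core bound by Ebf factors, and the E-boxes CAGGTG and CAGCTG, on either strand. The positions are chr16:16863986-16864235 (minus strand), chr2:101649533-101649782 (minus strand) and chr2:101624462-101624711 (plus strand).
Igll1: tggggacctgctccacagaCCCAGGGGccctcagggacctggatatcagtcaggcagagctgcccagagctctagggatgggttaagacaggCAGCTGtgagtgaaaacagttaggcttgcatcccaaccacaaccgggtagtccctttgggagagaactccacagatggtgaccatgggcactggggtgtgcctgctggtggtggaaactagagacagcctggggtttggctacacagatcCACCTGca
Rag1: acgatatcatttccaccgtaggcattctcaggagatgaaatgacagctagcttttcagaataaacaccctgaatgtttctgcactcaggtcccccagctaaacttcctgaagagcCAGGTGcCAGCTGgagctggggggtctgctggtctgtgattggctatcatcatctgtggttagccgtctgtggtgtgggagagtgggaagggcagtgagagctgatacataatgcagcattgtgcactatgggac
Rag2: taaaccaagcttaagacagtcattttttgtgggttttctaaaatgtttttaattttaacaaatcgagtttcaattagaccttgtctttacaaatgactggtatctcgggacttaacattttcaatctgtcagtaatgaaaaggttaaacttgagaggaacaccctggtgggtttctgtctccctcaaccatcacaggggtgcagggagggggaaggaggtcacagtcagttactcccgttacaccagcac
The Igll1 promoter held all 3 motifs, the Rag1 promoter held adjacent CAGGTG and CAGCTG, and these letters were not found in the Rag2 window. Among the 8 member promoters, CCCNNGGG was found in 1, CAGGTG in 5 and CAGCTG in 3, against 11.8%, 17.2% and 13.0% of 32851 mouse promoters of the same length. TGGGAA, a core motif of Ikaros, was found in 2 (Rag1 and Vpreb2), against 21.6% of all promoters. A match describes letters and is not evidence of a bound factor.

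The first comparison asked which early B lineage genes differed between the lineages. Of the 9 members, 4 rose in Fgfr3CE-E12.5 over Dlx5CE-E12.5 cells (Igll1, Vpreb1, Dntt and Rag2, by 3.19-fold to 4.85-fold in mean normalized CPM), whereas Cd79a, Cd79b, Vpreb3 and Vpreb2 had higher means but did not pass the test and Rag1 had a lower mean. A gene was called where edgeR's quasi-likelihood test gave an adjusted p below 0.05 and the absolute log2 fold change exceeded 1. Among the 10088 protein-coding genes and reporters that reached a CPM of 10 in 2 or more libraries, 16.4% were called higher in Fgfr3CE-E12.5 cells, and 5 members entered that fit. The other 4 members (Rag1, Rag2, Vpreb1 and Vpreb2) entered a fit of all 16708 features that reached a CPM of 1 in 2 or more libraries, in which 17.1% were called higher in Fgfr3CE-E12.5 cells. Dntt and Igll1 passed the first filter, and Vpreb2 the second, only through the Fgfr3CE-E12.5 libraries. The CPM of a gene that passed in this way had to be higher in both Fgfr3CE-E12.5 libraries than in any Dlx5CE-E12.5 library. The filter thus fixed the direction of its difference but not the size. With bulk RNA, fewer cells of a type and less RNA per cell cannot be told apart, and the p-values measure the spread between these libraries alone.

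**Figure D1:**
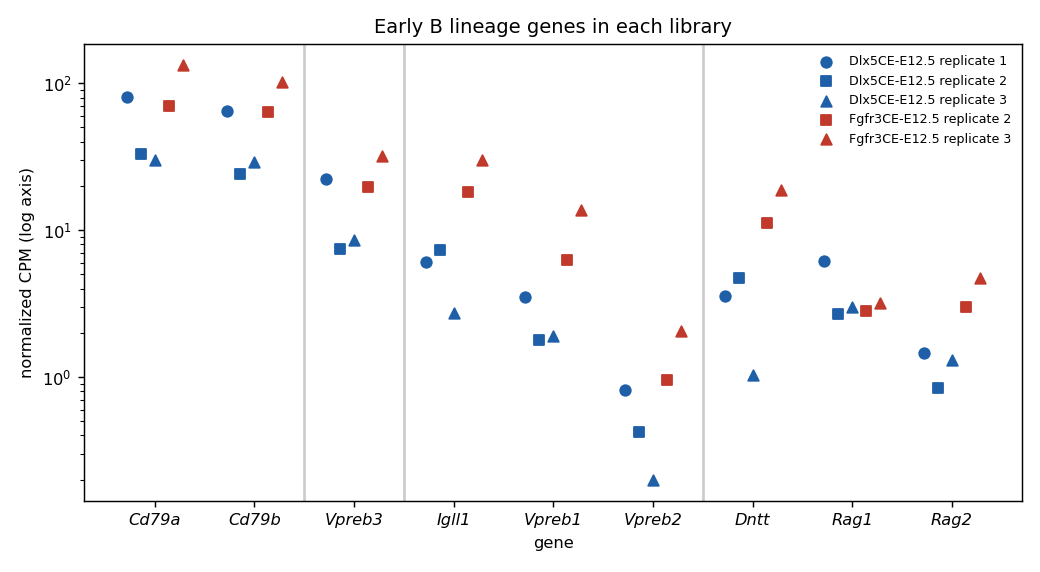
Normalized CPM (log axis) of each early B lineage gene in each library, with pan-B genes at the left, Vpreb3 and the surrogate light chain genes in the middle and the recombination genes at the right. Each point is 1 library. Blue points are Dlx5CE-E12.5 and red points Fgfr3CE-E12.5 libraries. Igll1, Vpreb1, Vpreb2, Dntt and Rag2 have both red points above all blue points, and Dlx5CE-E12.5 replicate 1 is the highest blue point for 7 of 9 genes.

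Of the surrogate light chain genes, Igll1 and Vpreb1 rose and Vpreb2 did not pass the test. Igll1 (ENSMUSG00000075370, chr16:16860671-16863985, minus strand) encodes lambda5, the constant-like part of the surrogate light chain. Its level was 6.07, 7.30 and 2.74 normalized CPM in Dlx5CE-E12.5 replicates 1 to 3 and 18.1 and 30.2 in Fgfr3CE-E12.5 replicates 2 and 3, from 69 to 186 counts and 1114 to 1912 counts. All Fgfr3CE-E12.5 libraries lay above all Dlx5CE-E12.5 libraries, as they did for 34.8% of genes in that fit, and Igll1 rose by 2.17 on the log2 scale (SE 0.43, edgeR adjusted p = 0.00566). It was the member that was still called when Fgfr3CE-E12.5 replicate 3 was left out, with a log2 fold change of 1.75.

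Vpreb1 (ENSMUSG00000059305), the V-like partner of Igll1, had 3.49, 1.79 and 1.91 normalized CPM in Dlx5CE-E12.5 libraries and 6.26 and 13.7 in Fgfr3CE-E12.5 libraries. The libraries did not overlap, as for 30.0% of features in the wider fit, and Vpreb1 rose by 2.17 on the log2 scale (SE 0.46, edgeR adjusted p = 0.0075). Without Fgfr3CE-E12.5 replicate 3 it was 1.47 with an edgeR adjusted p of 0.0512 and was no longer called. Top3b, which encodes a topoisomerase, overlaps 108 exon bases of Vpreb1 on the opposite strand, and it averaged 65.7 normalized CPM in Dlx5CE-E12.5 and 74.0 in Fgfr3CE-E12.5 libraries. The library kit does not mark strand, so reads of these bases cannot be assigned to one of the genes by strand.

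Vpreb2 (ENSMUSG00000059280), the close copy of Vpreb1, had the fewest counts of the members, with 25, 9 and 5 counts in Dlx5CE-E12.5 libraries (0.816, 0.424 and 0.199 normalized CPM) and 59 and 131 counts in Fgfr3CE-E12.5 libraries (0.959 and 2.07 normalized CPM). The libraries did not overlap, but the log2 fold change of 1.75 (SE 0.66) did not pass the test (edgeR adjusted p = 0.0613). It was called without Dlx5CE-E12.5 replicate 1, at 2.41 (edgeR adjusted p = 0.0302), and without Fgfr3CE-E12.5 replicate 2, at 2.20 (edgeR adjusted p = 0.0494), whereas without Fgfr3CE-E12.5 replicate 3 it was 1.07 (edgeR adjusted p = 0.319). The counts of Vpreb1 exceeded those of Vpreb2 by 4.28, 4.22 and 9.6 times in Dlx5CE-E12.5 libraries and by 6.53 and 6.64 times in Fgfr3CE-E12.5 libraries, and these ranges overlapped.

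Vpreb3 (ENSMUSG00000000903, chr10:75943057-75949657, plus strand), a related gene that is also expressed after the pre-B stage, had 22.2, 7.49 and 8.59 normalized CPM in Dlx5CE-E12.5 libraries and 19.6 and 31.8 in Fgfr3CE-E12.5 libraries. Dlx5CE-E12.5 replicate 1 lay between the Fgfr3CE-E12.5 libraries, and the log2 fold change of 1.00 (SE 0.48) did not pass the test (edgeR adjusted p = 0.130). Without that library it was 1.68 and was called (edgeR adjusted p = 0.00722), whereas it was 0.61 without Fgfr3CE-E12.5 replicate 3 (edgeR adjusted p = 0.467).

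The recombination genes did not move as a group. Dntt (ENSMUSG00000025014, chr19:41029275-41059525, plus strand), which encodes terminal transferase, had 3.56, 4.71 and 1.03 normalized CPM in Dlx5CE-E12.5 libraries and 11.2 and 18.9 in Fgfr3CE-E12.5 libraries. It varied more within Dlx5CE-E12.5 than Igll1 did, from 26 to 109 counts, but no Dlx5CE-E12.5 library reached the Fgfr3CE-E12.5 libraries. Dntt rose by 2.28 on the log2 scale (SE 0.56, edgeR adjusted p = 0.0141), and without Fgfr3CE-E12.5 replicate 3 it was 1.86 with an edgeR adjusted p of 0.09 and was no longer called.

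Rag1 (ENSMUSG00000061311, chr2:101638282-101649501, minus strand) and Rag2 (ENSMUSG00000032864, chr2:101624718-101632529, plus strand) encode the subunits of the recombinase, and both are needed for cutting. Rag2 had 1.47, 0.848 and 1.31 normalized CPM in Dlx5CE-E12.5 libraries and 2.97 and 4.75 in Fgfr3CE-E12.5 libraries, without overlap. It rose by 1.78 on the log2 scale (SE 0.42, edgeR adjusted p = 0.0113), but it was 1.38 and not called without Fgfr3CE-E12.5 replicate 3 (edgeR adjusted p = 0.0631).

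Rag1 had 6.17, 2.68 and 2.98 normalized CPM in Dlx5CE-E12.5 libraries and 2.80 and 3.19 in Fgfr3CE-E12.5 libraries. Apart from Dlx5CE-E12.5 replicate 1, the libraries lay in one range, and the log2 fold change was -0.29 (SE 0.45, edgeR adjusted p = 0.612). Its sign depended on that library, since without it the value was 0.19 (edgeR adjusted p = 0.676). Per kilobase of exon, Rag1 over Rag2 was 2.18, 1.64 and 1.18 in Dlx5CE-E12.5 libraries and 0.487 and 0.348 in Fgfr3CE-E12.5 libraries, so that Rag1 was the higher of the pair in each Dlx5CE-E12.5 library and the lower in each Fgfr3CE-E12.5 library. The gene B230118H07Rik overlaps 80 exon bases of Rag1 on the same strand and 208 of Rag2 on the opposite strand. Its mean level was 27.6 normalized CPM in Dlx5CE-E12.5 and 14.6 in Fgfr3CE-E12.5 libraries, and its part in the Rag1 and Rag2 counts was not tested.

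The pan-B genes encode the signalling chains of the B cell receptor, Ig-alpha and Ig-beta, and were the members with the highest levels. Cd79a (ENSMUSG00000003379, chr7:24897381-24902197, plus strand) had 81.3, 33.2 and 29.9 normalized CPM in Dlx5CE-E12.5 libraries and 69.9 and 133.7 in Fgfr3CE-E12.5 libraries. Dlx5CE-E12.5 replicate 1 exceeded Fgfr3CE-E12.5 replicate 2, and the log2 fold change of 1.08 (SE 0.47) did not pass the test (edgeR adjusted p = 0.0984). Of the 50-base windows of Cd79a, 8.31% also occur in Gm32220, which averaged 3.12 normalized CPM in Dlx5CE-E12.5 and 3.11 in Fgfr3CE-E12.5 libraries.

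Cd79b (ENSMUSG00000040592, chr11:106311341-106314762, minus strand) followed the same order, with 64.9, 24.0 and 29.0 normalized CPM in Dlx5CE-E12.5 libraries and 64.1 and 102.0 in Fgfr3CE-E12.5 libraries. Its log2 fold change was also 1.08 (SE 0.43, edgeR adjusted p = 0.0757). The calls of both pan-B genes depended on the library left out. Without Dlx5CE-E12.5 replicate 1, Cd79a was 1.69 (edgeR adjusted p = 0.00933) and Cd79b 1.65 (edgeR adjusted p = 0.00542). Without Fgfr3CE-E12.5 replicate 3, Cd79a was 0.54 (edgeR adjusted p = 0.48) and Cd79b 0.70 (edgeR adjusted p = 0.336), and without Dlx5CE-E12.5 replicate 2 or 3 both were between 0.83 and 0.90 and not called. With DESeq2's Wald test, both were called at 1.08, with adjusted p-values of 0.0368 for Cd79a and 0.0253 for Cd79b.

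**Figure D2:**
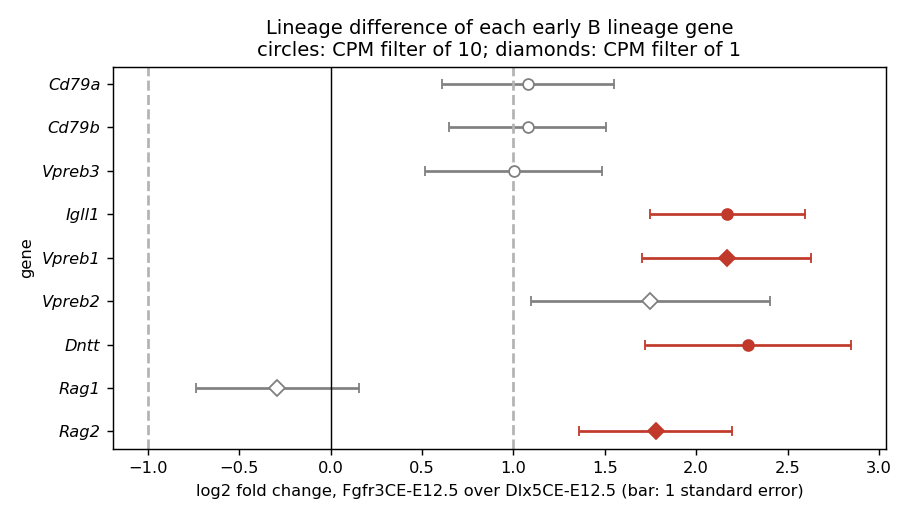
Log2 fold change of Fgfr3CE-E12.5 over Dlx5CE-E12.5 cells for each gene, with bars of 1 standard error derived from the F statistic of edgeR's test. Circles are from the fit with the CPM filter of 10 and diamonds from that with the CPM filter of 1, filled red symbols were called, and dashed lines mark an absolute log2 fold change of 1. Igll1, Vpreb1, Dntt and Rag2 are filled at 1.78 to 2.28, Cd79a, Cd79b and Vpreb3 lie at 1.00 to 1.08, and Rag1 lies at -0.29.

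Levels of different genes were compared per kilobase of exon. In Dlx5CE-E12.5 libraries the mean order was Cd79a (33.0 normalized CPM per kb), Cd79b (27.4), Vpreb3 (14.9), Igll1 (2.48), Vpreb1 (2.00), Dntt (1.35), Vpreb2 (0.632), Rag1 (0.597) and Rag2 (0.353). The ranges over libraries of Cd79a, Cd79b and Vpreb3 overlapped each other, but within each library Cd79a exceeded Cd79b and Cd79b exceeded Vpreb3. Vpreb3 stood above Igll1 in each library, and the ranges of neighbours from Igll1 down to Rag2 overlapped. In Fgfr3CE-E12.5 libraries the order was the same except that Rag2 (1.13) exceeded Rag1 (0.453), with Cd79a at 69.9, Cd79b at 58.0, Vpreb3 at 29.9, Igll1 at 11.2, Vpreb1 at 8.33, Dntt at 6.56 and Vpreb2 at 1.99. Pan-B genes and Vpreb3 thus stood above the genes restricted to pro-B and pre-B cells in both lineages.

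The second comparison asked how pro-B and pre-B genes stood against pan-B genes within a library, where depth cancels. The summed counts of the 7 pro-B and pre-B genes divided by those of Cd79a and Cd79b were 0.300, 0.441 and 0.319 in Dlx5CE-E12.5 libraries and 0.462 and 0.444 in Fgfr3CE-E12.5 libraries. The mean log2 ratio was -1.52 ± 0.30 (SD, n = 3) in Dlx5CE-E12.5 cells and -1.14 ± 0.042 (SD, n = 2) in Fgfr3CE-E12.5 cells, a difference of 0.38. Dlx5CE-E12.5 replicate 2 was nearly as high as Fgfr3CE-E12.5 replicate 3, and the difference was of the order of the spread between Dlx5CE-E12.5 libraries. No test was made of this score, since its genes were chosen with results of these data known.

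The single genes behind this ratio differed from each other. Per 100 counts of Cd79a and Cd79b, Igll1 had 4.15, 12.8 and 4.66 counts in Dlx5CE-E12.5 libraries and 13.5 and 12.8 in Fgfr3CE-E12.5 libraries, and Dntt had 2.43, 8.23 and 1.76 against 8.36 and 8.01. For both genes Dlx5CE-E12.5 replicate 2 was close to the Fgfr3CE-E12.5 libraries, while the other 2 Dlx5CE-E12.5 libraries were well below. Vpreb1 had 2.39, 3.13 and 3.24 counts in Dlx5CE-E12.5 libraries and 4.67 and 5.82 in Fgfr3CE-E12.5 libraries, with all Fgfr3CE-E12.5 libraries above. Rag1 went the other way, with 4.22, 4.69 and 5.07 counts in Dlx5CE-E12.5 libraries and 2.09 and 1.35 in Fgfr3CE-E12.5 libraries.

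Vpreb3 stayed within 13.1 to 15.2 counts per 100 pan-B counts over all 5 libraries, and Rag2 (1.00 to 2.23) and Vpreb2 (0.338 to 0.877) overlapped between the lineages. Ms4a1, which encodes the CD20 antigen of more mature B cells and is no member, had 21.4, 19.8 and 17.0 counts per 100 pan-B counts in Dlx5CE-E12.5 libraries and 14.3 and 12.0 in Fgfr3CE-E12.5 libraries. Relative to the pan-B genes, then, Vpreb1 was higher and Ms4a1 and Rag1 were lower in each Fgfr3CE-E12.5 library than in any Dlx5CE-E12.5 library, which is a description of 5 libraries without a test. Igll1 was also higher in each, but barely, with 12.80 in Fgfr3CE-E12.5 replicate 3 against 12.76 in Dlx5CE-E12.5 replicate 2.

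**Figure D3:**
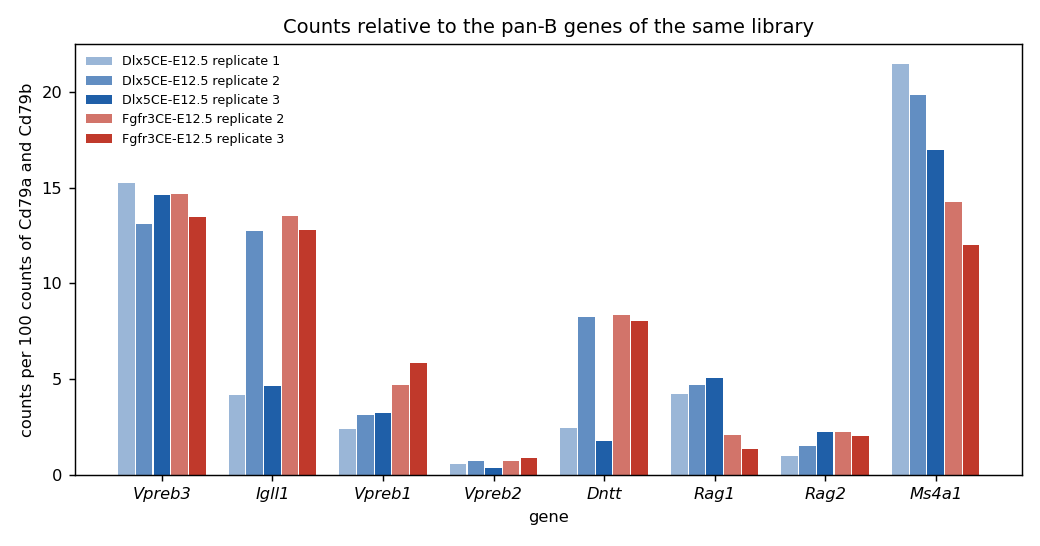
Counts of each pro-B and pre-B gene, and of Ms4a1, per 100 counts of Cd79a and Cd79b in the same library. Each bar is 1 library, blue for Dlx5CE-E12.5 and red for Fgfr3CE-E12.5. The bars of Vpreb3 are level over the 5 libraries at 13.1 to 15.2, those of Rag1 and Ms4a1 are lower in red, and those of Igll1 and Dntt are high in Dlx5CE-E12.5 replicate 2 as well as in both red bars.

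The members varied in order between the libraries of a lineage. Fgfr3CE-E12.5 replicate 3 exceeded replicate 2 for 9 of 9 members, by 1.14 times for Rag1 up to 2.19 times for Vpreb1. The same held for 10 of 10 pan-leukocyte, 12 of 12 neutrophil and 8 of 8 erythroid markers, but for 1 of 9 marrow stromal markers. Among Dlx5CE-E12.5 libraries, replicate 1 was the highest for 7 of 9 members, the exceptions being Dntt and Igll1, which were highest in replicate 2. Replicate 1 was also the highest for 9 of 10 pan-leukocyte and 7 of 8 erythroid markers, but for 5 of 12 neutrophil and 1 of 9 marrow stromal markers. Relative to the mean of replicates 2 and 3, replicate 1 was at 2.58 for Cd79a, 2.45 for Cd79b and 2.77 for Vpreb3, but at 1.24 for Dntt and 1.21 for Igll1. The summed level of 12 mature B genes was at 3.13 in the same comparison and that of 10 pan-leukocyte markers at 1.21. Cd74 made up 189 of the 339 normalized CPM of the mature B sum in replicate 1. Of the 12 mature B genes, 11 were highest in that library among the Dlx5CE-E12.5 libraries.

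By summed level, the pan-leukocyte, neutrophil, macrophage and T and NK cell markers were higher in both Fgfr3CE-E12.5 libraries than in any Dlx5CE-E12.5 library. All 10 pan-leukocyte markers, such as Ptprc (CD45), rose in Fgfr3CE-E12.5 cells, and their summed level was 455 to 591 normalized CPM in Dlx5CE-E12.5 and 1482 to 3150 in Fgfr3CE-E12.5 libraries. Over the mean of the Dlx5CE-E12.5 libraries, Fgfr3CE-E12.5 replicates 2 and 3 stood at 2.84 and 6.03 for pan-leukocyte markers, at 2.56 and 6.31 for 12 neutrophil markers, at 3.73 and 8.44 for 8 macrophage markers and at 2.39 and 5.05 for 9 T and NK cell markers. The same values were 2.12 and 3.57 for the pro-B and pre-B members and 1.53 and 2.70 for the pan-B members. In the fit with the lower filter, 12 of 12 neutrophil, 6 of 8 macrophage and 5 of 6 tested T and NK cell markers rose. Lyz2 made up 1292 of 1459 and 3070 of 3300 normalized CPM of the macrophage sum in Fgfr3CE-E12.5 replicates 2 and 3. Mrc1 had a lower mean in Fgfr3CE-E12.5 than in Dlx5CE-E12.5 libraries (4.73 against 9.63 normalized CPM) and was not called. Nkg7 made up 23.8 of 41.5 and 55.8 of 87.7 normalized CPM of the T and NK cell sum in Fgfr3CE-E12.5 replicates 2 and 3. Among defining T and NK cell markers, Klrb1c had no count in the Dlx5CE-E12.5 libraries and 57 and 111 counts in the Fgfr3CE-E12.5 libraries. Klrb1c and Il2rb passed the filter through the Fgfr3CE-E12.5 libraries alone. With the lower filter, Cd3d (log2 fold change 2.05, edgeR adjusted p = 0.0136) and Lck (2.33, edgeR adjusted p = 0.0114) were called higher in Fgfr3CE-E12.5 cells. Cd3e and Cd3g had 0 counts in Fgfr3CE-E12.5 replicate 2, 44 and 25 in replicate 3, and were not tested. Cd4 was not called, and Cd8a stayed under 0.1 normalized CPM throughout.

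Erythroid markers did not follow the order of the pan-leukocyte markers. Their summed level was highest in Dlx5CE-E12.5 replicate 1 (35943 normalized CPM, against 13573 to 23189 in the other libraries). Among the Dlx5CE-E12.5 libraries, 7 of 8 erythroid markers were highest in that library. Of 6 plasmacytoid dendritic cell markers, a cell type that can share Dntt and Rag gene expression, 5 were tested and they moved in both directions. Siglech (0.398 to 1.14 normalized CPM in Dlx5CE-E12.5 libraries, 2.88 and 5.36 in Fgfr3CE-E12.5 libraries) and Ccr9 (0.0942 to 0.326 against 1.82 and 2.24), which are the more specific markers, rose, Ccr9 having passed the filter only through the Fgfr3CE-E12.5 libraries. Bst2, which other cell types also express, fell (105 to 146 against 58.4 and 49.4) and carried most of the summed level of all 6, which was 128 to 205 normalized CPM in Dlx5CE-E12.5 and 83.8 to 96.1 in Fgfr3CE-E12.5 libraries. The summed level of 4 endothelial markers was 15.1 to 31.3 normalized CPM in Dlx5CE-E12.5 and 22.2 to 27.4 in Fgfr3CE-E12.5 libraries. In the fit with the lower filter, Pecam1 was called higher in Fgfr3CE-E12.5 cells (log2 fold change 1.05, edgeR adjusted p = 0.0315). Cdh5 was called higher in Dlx5CE-E12.5 cells in that fit. Pecam1 was not called in the fit with the higher filter (0.94, edgeR adjusted p = 0.0504), which Cdh5 did not enter. The part of these cell types, of depth and of sequencing in the differences of the members was not tested.

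**Figure D4:**
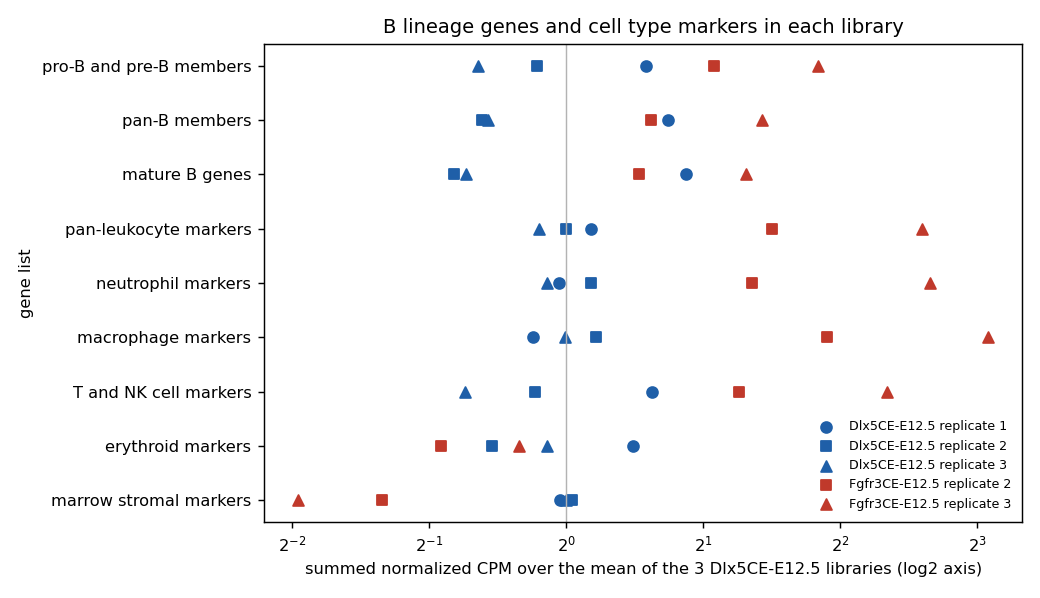
Summed normalized CPM of each gene list in each library, divided by the mean of the 3 Dlx5CE-E12.5 libraries (log2 axis). Each point is 1 library. The Fgfr3CE-E12.5 points of pan-leukocyte markers lie at 2.84 and 6.03, farther right than those of the pan-B members at 1.53 and 2.70. Those of the marrow stromal markers, a sum made up mostly of Cxcl12, lie at 0.393 and 0.258.

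The regulators and partners of these genes were read from 5 further lists with 53 genes, in the fit of all features with the lower filter, in which 17.1% were called higher in Fgfr3CE-E12.5 and 22.5% higher in Dlx5CE-E12.5 cells and the median log2 fold change was -0.02. Of 13 B lineage transcription factors, 7 rose and 1 fell, with a median log2 fold change of 1.20. Tcf3, which encodes E2A, Myb and Lef1 had the largest changes, with log2 fold changes of 3.21 (SE 0.32), 3.09 (SE 0.54) and 3.07 (SE 0.33). Lef1 and Myb act in progenitors of several blood lineages as well as in pro-B cells. Ebf1, which specifies B cells but is also expressed by marrow stromal cells, had 698, 764 and 750 normalized CPM in Dlx5CE-E12.5 libraries and 383 and 189 in Fgfr3CE-E12.5 libraries, and its log2 fold change was -1.26 (SE 0.29, edgeR adjusted p = 0.0102). Ebf1 was not called without Fgfr3CE-E12.5 replicate 3.

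Pax5, which commits cells to the B lineage, had 9.20, 3.72 and 3.02 normalized CPM in Dlx5CE-E12.5 libraries and 2.89 and 2.79 in Fgfr3CE-E12.5 libraries. Its log2 fold change of -0.80 (SE 0.52) did not pass the test (edgeR adjusted p = 0.243), and no Fgfr3CE-E12.5 library exceeded a Dlx5CE-E12.5 library. Pax5 and Rag1 were thus both highest in Dlx5CE-E12.5 replicate 1, and neither was higher in Fgfr3CE-E12.5 cells by its mean.

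Of 12 genes for B lineage receptors and signalling, 8 rose, with a median log2 fold change of 1.57. Il7r, the receptor for interleukin 7, rose by 2.13 (SE 0.26), Plcg2 by 2.10 (SE 0.31) and Blk, a kinase of the B cell receptor, by 2.10 (SE 0.62) on the log2 scale. Several of these genes, Plcg2 and Lyn among them, are also expressed by myeloid cells.

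Of 12 mature B genes 11 were tested and 3 rose, with a median log2 fold change of 0.84. These were Tnfrsf13b (1.75, SE 0.59), Cd37 (1.73, SE 0.52) and Cd40 (1.46, SE 0.51), of which Tnfrsf13b was not called with the CPM filter of 10 (1.63, edgeR adjusted p = 0.0529), whereas Ms4a1 was at 0.54 (SE 0.50, edgeR adjusted p = 0.398). Without Dlx5CE-E12.5 replicate 1, 8 of the 11 mature B genes were called higher in Fgfr3CE-E12.5 cells. By edgeR's quasi-likelihood test, 0 were called without Dlx5CE-E12.5 replicate 2, without Dlx5CE-E12.5 replicate 3 or without Fgfr3CE-E12.5 replicate 3, with 1, 2 and 0 at an unadjusted p under 0.05, and DESeq2's Wald test on all libraries called 3. The transcription factors called higher numbered 4 without Dlx5CE-E12.5 replicate 2, without Dlx5CE-E12.5 replicate 3 and without Fgfr3CE-E12.5 replicate 3, and the receptor and signalling genes called higher numbered 5, 6 and 4.

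Of 7 plasma cell genes 5 were tested and Prdm1 rose by 5.05 (SE 0.49), from at most 0.188 normalized CPM in Dlx5CE-E12.5 libraries to 5.82 and 3.27 in Fgfr3CE-E12.5 libraries. It had 3 or 4 counts in each Dlx5CE-E12.5 library and passed the filter only through the Fgfr3CE-E12.5 libraries, so the direction of its difference was fixed. Prdm1 also acts outside plasma cells, and Jchain, a defining plasma cell gene, was at 0.159 normalized CPM or less in each library. Sdc1, with log2 fold change -0.90 (SE 0.14), was not called here but fell in the fit with the CPM filter of 10, at -1.01, where 13.1% of genes were called higher in Dlx5CE-E12.5 cells. Of 9 genes that join the ends made by the Rag proteins, Lig4 rose by 1.11 (SE 0.28), Prkdc fell with a log2 fold change of -1.23 (SE 0.27), and Polm was at 0.98 (SE 0.35, edgeR adjusted p = 0.0525). Lig4 was not called without Dlx5CE-E12.5 replicate 3 or without Fgfr3CE-E12.5 replicate 3, and Prkdc was not called without the latter.

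Immunoglobulin segments, the products on which the recombination genes act, were the last readout. Of 208 segments counted, 14 passed the lower filter and 2 were called higher in Fgfr3CE-E12.5 cells, Ighm and Igkv1-117, beside 17.1% of all features. Ighm, the constant gene of the mu heavy chain, had 258, 93.1 and 107 normalized CPM in Dlx5CE-E12.5 libraries and 350 and 560 in Fgfr3CE-E12.5 libraries, and rose by 1.69 on the log2 scale (SE 0.46, edgeR adjusted p = 0.0195). Igkc, the constant gene of the kappa light chain, had 67.0, 19.1 and 18.6 against 55.3 and 97.1 normalized CPM, overlapped between the lineages, and did not pass the test at 1.24 (SE 0.59, edgeR adjusted p = 0.118). Ighd (0.86), which mature B cells express, and the lambda constant genes Iglc1 (0.71), Iglc2 (0.77) and Iglc3 (0.78) were not called either.

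Per 100 pan-B counts, Ighm had 177, 163 and 181 counts in Dlx5CE-E12.5 libraries and 261 and 237 in Fgfr3CE-E12.5 libraries, without overlap, while Igkc had 45.9, 33.4 and 31.6 against 41.3 and 41.2. Heavy chain V segments summed to 15.6, 4.94 and 5.01 normalized CPM in Dlx5CE-E12.5 libraries and to 22.8 and 31.5 in Fgfr3CE-E12.5 libraries, and kappa chain V segments to 24.1, 10.3 and 6.68 against 19.5 and 32.5. Dlx5CE-E12.5 replicate 1 lay above Fgfr3CE-E12.5 replicate 2 for Igkc and the kappa V segments, and below it for Ighm and the heavy chain V segments. Reads of joined segments and of near-identical V segments may have been split or lost in counting, so single segments are uncertain. Ighm was not called without Dlx5CE-E12.5 replicate 2, Dlx5CE-E12.5 replicate 3 or Fgfr3CE-E12.5 replicate 3.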

How the data were processed

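Per the submitters' processing notes and the methods of the study, the authors aligned reads to mm10 with TopHat2 2.0.13 and Bowtie2 2.2.1 and deposited raw counts per Ensembl gene with reporter sequences added. The notes name HTSeq, and its strand setting and its handling of reads in shared bases are not given in the sources used here. A deposited size-factor-normalized table and an rlog table were not used.

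Members and lists were chosen with earlier results of these data known. Symbols and positions came from GENCODE M21 (GRCm38), in which 29965 identifiers matched and 76 did not. The main test was that of edgeR 4.0.16 (R 4.3.3) on the counts (TMM, quasi-likelihood test, Benjamini-Hochberg adjustment over all genes tested, no covariate), with protein-coding genes and reporters that reached a CPM of 10 in 2 or more libraries. Members below this filter were read from a fit of all features that reached a CPM of 1 in 2 or more libraries. A call needed an adjusted p below 0.05 and a log2 fold change beyond 1 in either direction. Each standard error (SE) was derived as the absolute log2 fold change divided by the square root of the F statistic of the quasi-likelihood test. The fits were tested on simulated data. Each pair of libraries within a group differed by more than sampling noise.

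The genes named are the members, in each B lineage list the 3 largest absolute log2 fold changes plus Ebf1, Pax5, Il7r and Ms4a1 (a further gene under this rule is not reported here), the immunoglobulin constant genes Ighm, Ighd, Igkc and Iglc1 to Iglc3, and the 8 genes with the member-like profile. Neighbouring genes, marker examples, Lyn, Jchain and Igkv1-117 were named after their values were seen. Alternatives were DESeq2's size factors, library size alone, DESeq2 1.42.0's Wald test, edgeR's exact test, other filters, the replicate number as a block, and each library left out.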

Additional observations from a re-analysis of the deposited data

How the results depend on the processing

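The number of members called, 4 in the analysis reported, was 7 by edgeR's exact test, 1 with a filter of a mean CPM of at least 10, which Igll1, Cd79a, Cd79b and Vpreb3 passed, and 1 to 8 when a library was left out (1 without Fgfr3CE-E12.5 replicate 3, 8 without Dlx5CE-E12.5 replicate 1). Over all alternatives for single members, 93 values kept their direction and their side of the threshold, 14 passed it newly, 3 lost it and 2 changed sign. Both sign changes were of Rag1 (-0.51 to 0.19 when a library was left out), at 0.19 without Dlx5CE-E12.5 replicate 1 and 0.19 with the replicate block, and the cause was not tested. The number of genes called rose from 2971 to 6612 with all features and a CPM of at least 1, a fit of more features. Calls in the B lineage lists with the CPM filter of 10 numbered 18, and 8 to 28 when a library was left out. Calls of immunoglobulin segments numbered 2, and 0 to 5 when a library was left out, with 1 to 8 at an unadjusted p under 0.05 in edgeR, and DESeq2's Wald test on all libraries called 2. The log2 ratio difference of 0.38 stayed above 0 under each alternative, at 0.27 to 0.65. Scaling by library size alone moved the median log2 fold change of all genes from 0.01 to 0.22.

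The labels of both groups share the replicate numbers 2 and 3. Deviations from the group means correlated at 0.13 for number 2 and -0.05 for number 3 over genes. The 2 Fgfr3CE-E12.5 libraries deviate in opposite directions by construction. These values thus cannot decide whether libraries of the same number share more than that number. With the replicate block, 7 members, 28 genes of the B lineage lists and 5 immunoglobulin segments were called. By construction Dlx5CE-E12.5 replicate 1 has a block of its own there and does not enter the lineage contrast.

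With 3 and 2 libraries, precision was limited by the spread between libraries. Vpreb2, with as few as 5 counts, and Rag2, with as few as 18, were also limited by depth in the shallower Dlx5CE-E12.5 libraries.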

Other observations

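Genes outside all lists whose levels over the 5 libraries were most like those of the early B lineage genes were ranked among 16587 candidates by the root mean square distance between centred log2 profiles, with 0.5 added to normalized CPM. This is a description over 5 libraries that share the lineage contrast, and it carries no test. The 8 nearest were Cd84 (0.061), Rgs19 (0.069), Il2rg (0.088), Traip (0.094), Nrm (0.10), Paqr9 (0.10), Cd2 (0.11) and Ccnf (0.12), against a median of 0.874 for all candidates. Cd84 and Cd2 encode receptors of the surface of lymphocytes and other leukocytes, and Il2rg encodes the common chain of the interleukin 7 receptor and related receptors. Il2rg had 20.5, 12.3 and 11.1 normalized CPM in Dlx5CE-E12.5 libraries and 31.5 and 47.1 in Fgfr3CE-E12.5 libraries, and Ccnf, which encodes a cyclin, had 23.1, 14.7 and 12.7 against 33.5 and 64.0. The members themselves lay from 0.15 (Vpreb2) to 0.80 (Rag1) from their own mean profile, with Dntt at 0.67 and Igll1 at 0.54, and each of the 9 lay farther from it than the 8 genes named.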
